A study of Mus musculus with 39 samples.

Results

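Collagens and other genes of the extracellular matrix were followed in tumour cells sorted from mouse pancreatic tumours. The set held 37 of the 39017 genes of the count table and was taken by gene symbol. It comprised 5 fibrillar collagen chains, 11 basement membrane genes, 2 anchoring collagens, 4 microfibrillar and network collagens, 2 fibril-associated collagens, 8 matrix glycoproteins, 3 small proteoglycans, the cross-linking enzyme gene Lox and the fibroblast receptor gene Pdgfra.

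The study compared tumours grown from clones of pancreatic tumour cells that the labels class as T cell high or T cell low. Each clone formed a subcutaneous tumour in C57BL/6 mice that was taken after 3 weeks with no treatment, and the tumour cells were sorted, with YFP in the title of each sample. The T cell high class had 14 libraries from 6 clones, the intermediate class 4 from 2 clones and the T cell low class 18 from 9 clones. A further 3 libraries, each of another clone, carry no class and were left out of every test. The genotype of the tumour cells is not given in the sources used here, and nothing says that libraries of 1 clone came from separate animals, so the clone was the replicate and p-values measure the spread between clones.

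The extracellular matrix falls into 2 broad systems. The interstitial matrix is built on fibrils of type I, III and V collagen, which in pancreatic tumours are laid down mainly by fibroblasts, with Dcn, Lum and Bgn controlling fibril assembly and Lox cross-linking the chains. The basement membrane is a sheet under epithelial cells and around vessels, made of laminin trimers and a type IV collagen network joined by nidogen and perlecan. Epithelial cells, carcinoma cells among them, make much of it themselves. Dcn, Lum and Pdgfra are expressed in fibroblasts and served here as stromal transcripts, against which the other 34 genes were set.

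The libraries fell into 2 kinds. The cardiac muscle genes Mb, Myl2, Myh6 and Myh7 summed to at most 0.235 CPM (counts scaled to the library total) in 20 libraries, and to between 152 and 4893 CPM in 19. The first kind, called heart-free here, came from 6 T cell high, 2 intermediate and 8 T cell low clones and 1 clone with no class, and held 26866065 to 41683806 counts per library. Among the heart-bearing kind, the 7 libraries of at least 4000 CPM, from 7 clones, were nearly alike: 36 of the 37 genes lay within 1.84-fold over all 7, and Col17a1, at under 1 CPM, within 3.77-fold. In the heart-free libraries Col1a1 ranged 166-fold. Heart-free libraries were therefore read first. Epithelial markers were present in all 39 libraries, with Krt8 at 1139 to 3897 CPM and Epcam at 12.7 to 1471 CPM, but so were markers of other cells. In heart-free libraries 13 fibroblast markers outside the set summed to 10.3 to 708 CPM in T cell high, 54.4 and 248 CPM in intermediate and 20.6 to 354 CPM in T cell low tumours, with none of them at 0 throughout a class. Over the same classes 7 macrophage markers summed to 103 to 3069, 141 and 3609, and 89.3 to 1642 CPM. In bulk libraries, fewer cells of a type and less RNA per cell cannot be told apart.

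Genes were compared with each other per kilobase of exon, with the length taken over all annotated exons of a gene. That length can exceed the transcript expressed, so the order is approximate. On this scale the members that led in the median of the 16 classed heart-free clones were not the fibril genes. Fn1, which encodes fibronectin, a glycoprotein that links cells to the matrix, was first at 340.2 CPM per kb, followed by Fbln2 at 222 CPM per kb, Col18a1 at 144, Lama5 at 87.8 and Col4a1 at 78.5 CPM per kb. Col1a1 ranked 11 at 41.5 CPM per kb. Dcn, Pdgfra and Col17a1 were the lowest, at 0.564, 0.388 and 0.0587 CPM per kb. Clone yfp_6555c3, a T cell high clone with 1 heart-free library, had another order: Col1a1 came first at 1081 CPM per kb, ahead of Sparc at 544, Col3a1 at 509 and Col1a2 at 424, and Fn1 followed at 345 CPM per kb.

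The fibrillar collagens varied widely between clones. Col1a1, a chain of type I collagen, was at 70.3, 199 and 7098 CPM (lowest, median and highest) in the 6 T cell high clones, 231 and 361 CPM in the 2 intermediate clones, and 88.6, 368 and 2021 CPM in the 8 T cell low clones. Col1a2, the other chain, was at 42.2, 149 and 5274 CPM in high, 176 and 197 CPM in intermediate, and 53.6, 235 and 614 CPM in low clones. Col3a1, type III collagen, was at 50.5, 112 and 4994 CPM in high, 144 and 242 CPM in intermediate, and 65.7, 193 and 3228 CPM in low clones. The classes overlapped for all 3 genes, and the extreme clones were the same each time: yfp_6555c3 was the highest of the high clones and yfp_6556c4 the lowest, while among the low clones yfp_6419c4 was the highest and yfp_6694c2 the lowest. Type V collagen, which sets fibril width, has Col5a1 and Col5a2 among its chains. Col5a1 was at 42.2, 69.7 and 652 CPM in high, 36.4 and 264 CPM in intermediate, and 51.0, 89.1 and 863 CPM in low clones. Col5a2 was at 7.502, 22.4 and 516 CPM in high, 30.7 and 32.4 CPM in intermediate, and 10.9, 30.2 and 54.2 CPM in low clones. The top clones for Col5a1 were again yfp_6555c3 and yfp_6419c4, but Col5a2 was only at 35.5 CPM in yfp_6419c4. The ratio of highest to lowest clone had a median of 98.8 over the 5 fibrillar genes and 119 over the 3 proteoglycans, against 2.52 over 11046 genes that averaged 5 CPM or more and were at 0 in no clone. The first 2 medians rested largely on few clones. Over the 12 clones other than yfp_6555c3 and the yfp_6419 clones, the fibrillar genes had ratios from 7.08 (Col1a1) to 7.905 (Col3a1). The proteoglycans then had ratios from 6.395 (Bgn) to 9.69 (Lum). The ratio over all genes in those clones is not given here. Libraries of 1 clone also differed: over the 3 heart-free libraries of yfp_2838c3, Col1a1 ranged 5.52-fold and Col5a1 1.41-fold. Among basement membrane genes there, Lama3 ranged 5.13-fold and Lama5 1.24-fold.

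**Figure D1:**
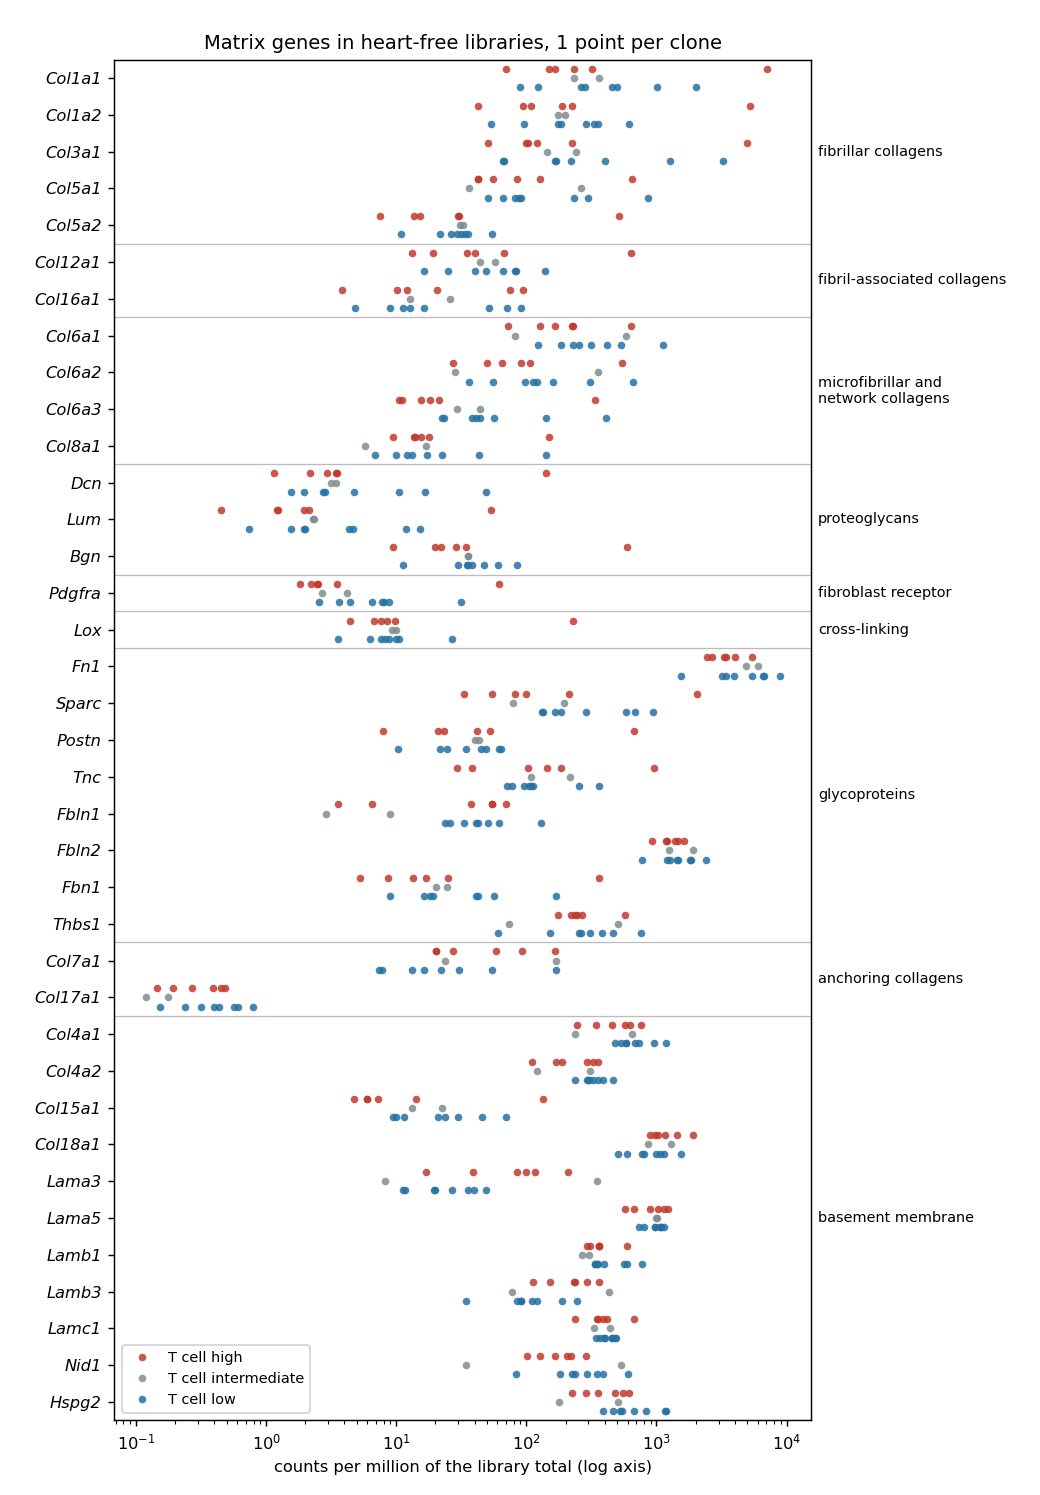
Level of each of the 37 genes in heart-free libraries, in CPM on a log axis, with 1 point per clone for T cell high (6), intermediate (2) and T cell low (8) clones, grouped by role. The fibrillar collagens, proteoglycans, Lox and Postn have 1 T cell high clone far to the right of the other high clones, while Lama5 and Lamc1 span 2.13-fold and 2.86-fold over all clones.

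The proteoglycans and Pdgfra were low in most clones. Dcn (decorin) was at 1.15, 3.18 and 142 CPM in high, 3.16 and 3.47 CPM in intermediate, and 1.56, 3.78 and 49.1 CPM in low clones. Lum (lumican) was at 0.449, 1.60 and 53.4 CPM in high, 2.30 and 2.33 CPM in intermediate, and 0.739, 3.18 and 15.1 CPM in low clones. Pdgfra, a growth factor receptor that marks fibroblasts, was at 1.81, 2.47 and 61.8 CPM in high, 2.69 and 4.17 CPM in intermediate, and 2.56, 7.12 and 31.6 CPM in low clones. The top high clone was yfp_6555c3 for all of them, with Bgn (biglycan) at 595 CPM there and between 9.52 and 85.4 CPM in every other classed clone. The next in the sum of Dcn, Lum and Pdgfra, which was 258 CPM in yfp_6555c3, were yfp_6419c4 at 92.5 CPM and its sister yfp_6419c5 at 40.5 CPM.

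The collagens that join fibrils to other structures had the same leading clones. Col6a3, a chain of the beaded filaments of type VI collagen, was at 10.6, 16.9 and 337 CPM in high, 29.3 and 44.2 CPM in intermediate, and 22.6, 42.3 and 406 CPM in low clones. Col6a2, another chain, was at 27.3, 78.6 and 543 CPM in high, 28.1 and 358 CPM in intermediate, and 36.4, 116 and 659 CPM in low clones. Col8a1, a short-chain network collagen, was at 9.39, 14.7 and 149 CPM in high, 5.77 and 16.8 CPM in intermediate, and 6.81, 15.2 and 142 CPM in low clones. Top of their class in each were yfp_6555c3 and yfp_6419c4. Col12a1, which binds the surface of fibrils, was at 13.2, 37.7 and 639 CPM in high, 44.1 and 57.3 CPM in intermediate, and 16.4, 57.1 and 139.9 CPM in low clones. Col15a1, a collagen at the border of basement membrane and stroma, was at 4.74, 6.63 and 135 CPM in high, 13.3 and 22.3 CPM in intermediate, and 9.45, 22.3 and 69.8 CPM in low clones. The classes overlapped for all of these genes.

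Many interstitial genes followed the stromal sum. The slope of each gene was fitted per log2 unit of the summed CPM of Dcn, Lum and Pdgfra over the 16 clones, with T cell class as a term, so that a slope of 1 means proportional to the stromal transcripts. In edgeR's quasi-likelihood test over all genes, 15 of the 34 members tested passed an adjusted p under 0.05, all with positive slopes, against 1.34% of all genes. The median slope was 0.52 over the 34 members and -0.01 over all genes. All 5 fibrillar chains passed: Col3a1 had a slope of 1.20 ± 0.08 (SE, adjusted p = 6.43e-07), Col1a1 of 1.03 ± 0.07 (adjusted p = 6.43e-07), Col1a2 of 0.95 ± 0.08, Col5a2 of 0.77 ± 0.10 and Col5a1 of 0.72 ± 0.12. Of the microfibrillar and network collagens, Col6a3 (0.92 ± 0.05, adjusted p = 7.24e-08), Col8a1 (0.70 ± 0.10) and Col6a2 (0.64 ± 0.13) passed, while Col6a1 had 0.44 ± 0.11 (adjusted p = 0.0848). Fbn1, which encodes the microfibril protein fibrillin, Bgn, Lox, the collagen-binding protein Sparc, Postn (periostin), Col15a1 and Col12a1 passed with slopes from 0.64 to 0.88. Col16a1 at 0.62 ± 0.19 and Col7a1 at 0.60 ± 0.16 did not pass.

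These calls rested on few clones. Without yfp_6555c3, 4 members passed (Col1a1, Col3a1, Col6a3 and Fbn1) against 0.156% of all genes. Without it and yfp_6419c4, Col3a1 and Col6a3 passed, of 4 genes called in all. Without it and the 3 yfp_6419 clones, a choice made after seeing the data, edgeR called 0 genes, with 9 members and 325 genes in all at an unadjusted p under 0.05, and the slope of Col1a1 was 1.20 ± 0.30 and that of Col6a3 0.69 ± 0.19. The sum of 13 other fibroblast markers in place of Dcn, Lum and Pdgfra gave 12 members, of 107 genes called in all. Col7a1 and Col16a1 were then among the members that passed, and Col5a1, Col6a2, Sparc, Postn and Lox were not. In that sum yfp_7160c2 and yfp_7160c5 stood high through 1 gene, Col14a1, at 284 and 214 CPM, where Dpt and Pi16 were between 0.627 and 1.10 CPM.

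**Figure D2:**
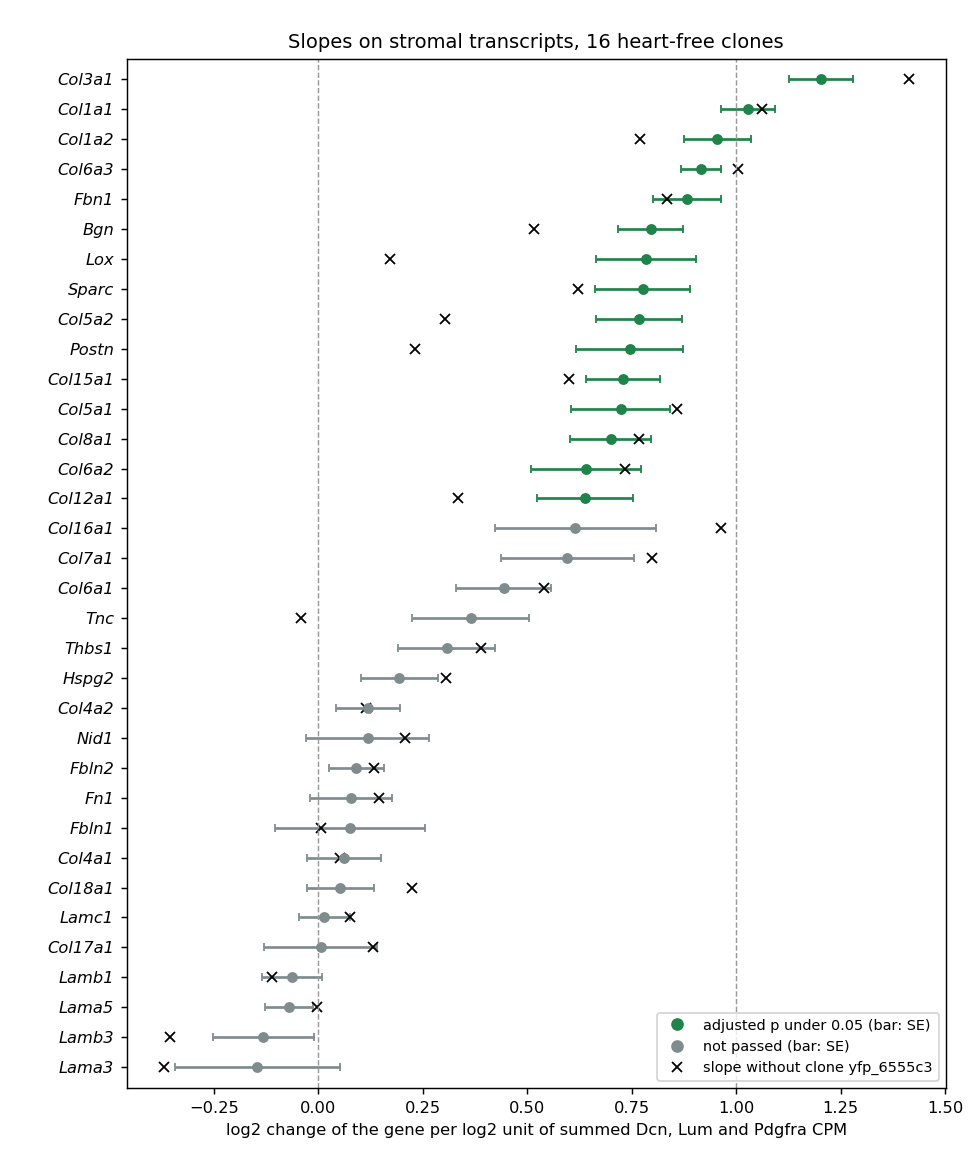
Slope of each member on the summed CPM of Dcn, Lum and Pdgfra over 16 heart-free clones, with bars for the SE, dashed lines at 0 and 1, and crosses for the slope without clone yfp_6555c3. Col3a1, Col1a1 and Col1a2 lie at 1.20, 1.03 and 0.95, most basement membrane genes near 0, and Lox, Postn and Col5a2 drop to between 0.17 and 0.30 without that clone.

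Of the members, 27 of the 37 members had a promoter window in the RefSeq tables (GRCm38.p6, 250 bases before to 50 after the gene's start). Those of Col1a2 and Col3a1 are shown because both genes passed the slope test with slopes near 1. Col1a2 is at chr6:4505368-4505667 on the + strand and Col3a1 at chr1:45311288-45311587 on the + strand, and capitals mark matches on either strand to CCAAT, to GGGCGG or to TATAAA.
Col1a2: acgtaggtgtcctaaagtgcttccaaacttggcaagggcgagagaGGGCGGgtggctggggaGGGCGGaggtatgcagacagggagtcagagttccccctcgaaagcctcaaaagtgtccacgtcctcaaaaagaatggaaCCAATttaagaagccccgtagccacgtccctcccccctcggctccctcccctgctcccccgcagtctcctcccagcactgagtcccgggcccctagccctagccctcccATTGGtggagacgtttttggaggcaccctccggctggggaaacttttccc
Col3a1: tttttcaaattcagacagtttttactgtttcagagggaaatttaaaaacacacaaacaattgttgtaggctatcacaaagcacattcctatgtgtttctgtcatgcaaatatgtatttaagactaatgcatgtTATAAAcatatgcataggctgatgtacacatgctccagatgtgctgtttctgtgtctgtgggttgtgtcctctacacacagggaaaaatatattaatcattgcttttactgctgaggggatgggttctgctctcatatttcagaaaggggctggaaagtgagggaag
The Col1a2 window held CCAAT on the printed strand at -109 and on the other strand at 1, counted from the first base of the match to the start site, and GGGCGG at -205 and -188. The Col3a1 window held TATAAA at -117 and neither of the other motifs. Over all 32817 windows 37.4% held CCAAT, 35.6% GGGCGG and 13.6% TATAAA on either strand. The G and C content was 61.0% for Col1a2 and 37.7% for Col3a1, against 53.8% over all windows.

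The interstitial genes stood in other proportions in yfp_6555c3 than in yfp_6419c4. Postn, a matrix protein made in wounds and stroma, was at 7.95, 32.6 and 673 CPM in high, 40.0 and 43.5 CPM in intermediate, and 10.4, 39.5 and 64.2 CPM in low clones, with yfp_6555c3 at the top and yfp_6419c4 at 21.7 CPM, below the low median. Lox was at 4.42, 8.03 and 226 CPM in high, 9.19 and 9.94 CPM in intermediate, and 3.58, 8.46 and 26.8 CPM in low clones, with yfp_6419c4 at 6.34 CPM. The ratio of Postn to Col1a1 was 0.0948 in yfp_6555c3 and 0.0107 in yfp_6419c4, and its median over clones was 0.128. The ratio of Lox to Col1a1 was 0.0319 in yfp_6555c3 and 0.00313 in yfp_6419c4, with a median of 0.0376, and that of Col5a2 to Col5a1 was 0.792 and 0.0411, with a median of 0.286. The low clone yfp_6419c4 thus led its class in Col1a1 and Col3a1 but not in Postn, Lox or Col5a2. Among markers of other cells, its library had 228 CPM of Pdgfrb, a receptor of pericytes and fibroblasts, against 80.1 CPM in yfp_6555c3. Other fibroblast markers were lower in yfp_6419c4: Col14a1 at 24.9 against 135 CPM, Thy1 at 17.2 against 87.2 CPM, and also Dpt, Mfap4 and Pi16. The fibroblast markers outside the set summed to 354 CPM in yfp_6419c4 and 708 CPM in yfp_6555c3. The 6 pericyte markers summed to 118 against 178 CPM. Their part in the difference was not tested.

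**Figure D3:**
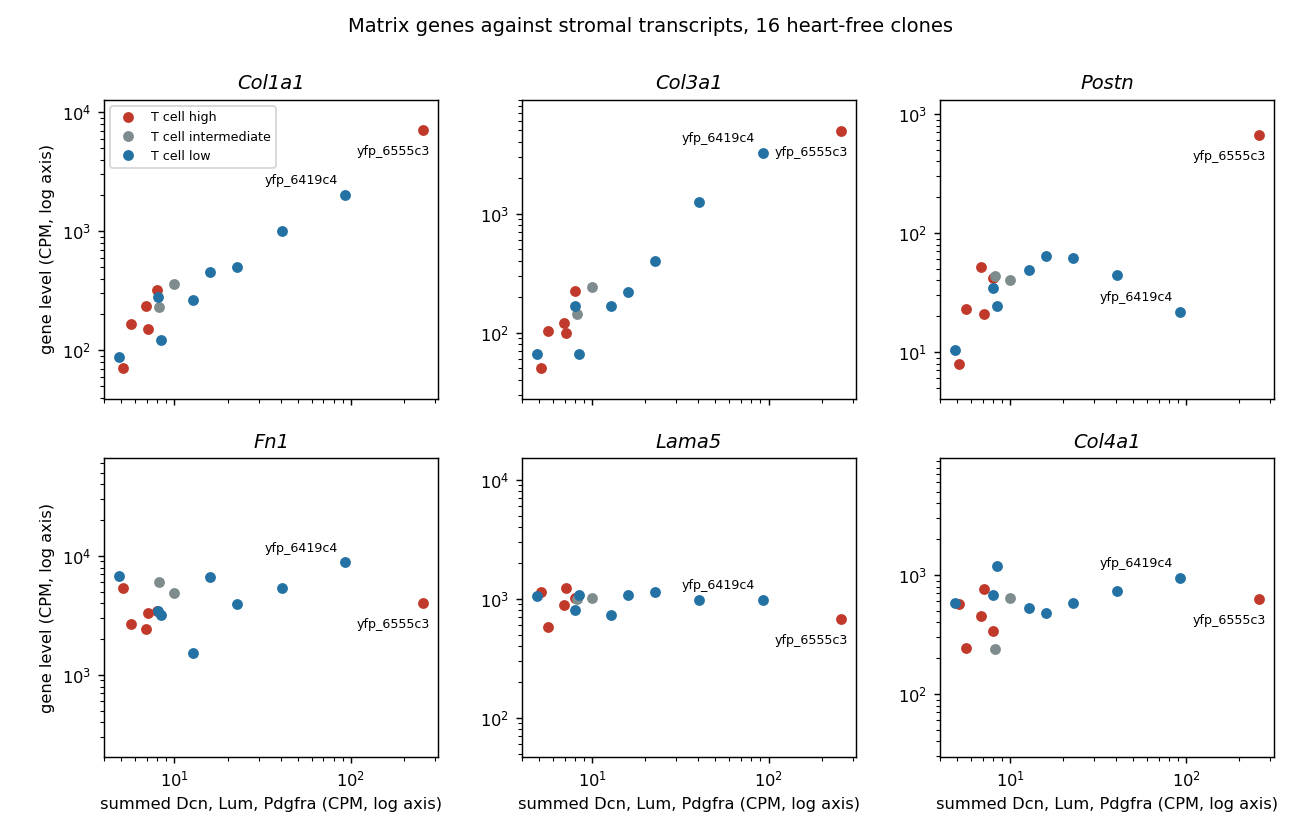
Level of 6 matrix genes against the summed CPM of Dcn, Lum and Pdgfra in 16 heart-free clones, both axes in CPM and logarithmic, with T cell high, intermediate and T cell low clones in separate colours. Col1a1 and Col3a1 climb along the axis, Postn is at 673 CPM in yfp_6555c3 but 21.7 CPM in yfp_6419c4, and Fn1, Lama5 and Col4a1 stay within 5.76-fold, 2.13-fold and 4.97-fold.

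The other glycoproteins were mixed. Sparc was at 33.3, 90.3 and 2060.5 CPM in high, 78.9 and 195 CPM in intermediate, and 133, 236 and 934 CPM in low clones, and 4 of the 6 high clones lay below every low clone. Fbn1 was at 5.23, 15.2 and 364 CPM in high, 20.3 and 24.7 CPM in intermediate, and 8.98, 30.0 and 169 CPM in low clones. Tnc, tenascin C of wounds and tumour stroma, was at 29.3, 123 and 956 CPM in high, 109 and 217 CPM in intermediate, and 71.2, 106 and 365 CPM in low clones, and it was highest, at 1024 CPM, in yfp_7062c3, which has no class and only 6.61 CPM of the stromal sum. Thbs1, thrombospondin, was at 175, 241 and 577 CPM in high, 73.0 and 508 CPM in intermediate, and 60.9, 287 and 765 CPM in low clones. Neither passed the slope test, at 0.36 ± 0.14 for Tnc and 0.31 ± 0.12 for Thbs1 (edgeR adjusted p = 0.489 and 0.466). Fn1 was at 2447, 3389.7 and 5407 CPM in high, 4904 and 6078 CPM in intermediate, and 1532, 4659.7 and 8829 CPM in low clones, with a slope of 0.08 ± 0.10. Fbln2 had a slope of 0.09 ± 0.07 over levels of 771 to 2401 CPM. Fbln1, another fibulin, had 0.08 ± 0.18 over 2.90 to 129 CPM and was lowest in yfp_7160c5, yfp_6620c1, yfp_7160c2 and yfp_6422c5, at 2.90, 3.60, 6.55 and 8.96 CPM.

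The basement membrane genes spread less as a group but unevenly. Their ratio of highest to lowest clone had a median of 4.97, against 2.52 over all genes, and was 42.3 for Lama3, 28.4 for Col15a1, 17.6 for Nid1 and 12.6 for Lamb3. Of the 11, only Col15a1 passed the slope test, at 0.73 ± 0.09, and the other 10 had slopes between -0.15 and 0.19. Lama5, a laminin alpha chain of mature epithelial basement membranes, was at 576, 954 and 1225 CPM in high, 986 and 1013 CPM in intermediate, and 729, 1020.2 and 1134 CPM in low clones. Its partners Lamc1, at 236, 373 and 675 CPM in high, 330.4 and 439.8 CPM in intermediate, and 344, 427 and 485 CPM in low clones, and Lamb1, at 266 to 775 CPM over all clones, were about as even. The ratio was 2.13 for Lama5, 2.86 for Lamc1 and 2.91 for Lamb1. Col4a1, the main collagen of basement membranes, was at 244, 511 and 760.1 CPM in high, 238 and 647 CPM in intermediate, and 479, 636 and 1184 CPM in low clones, with a slope of 0.06 ± 0.09. Col18a1, whose product carries heparan sulphate, was at 899 to 1922 CPM in high, 863 and 1283 CPM in intermediate, and 504 to 1556 CPM in low clones. Hspg2 (perlecan) was at 225, 416 and 620.1 CPM in high, 177 and 508 CPM in intermediate, and 389, 608 and 1189.8 CPM in low clones. Nid1 (nidogen) ranged from 34.2 CPM in the intermediate clone yfp_7160c5 to 602 CPM in yfp_6419c4.

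The contrast was also put as a proportion. The level of each gene in yfp_6555c3 was scaled to the sum of Dcn, Lum and Pdgfra in each other clone and divided by the level measured there. For Col1a1 and Col3a1 the scaled level was 110.2% and 110.1% of the measured one in the median of the 15 other clones, and for Lox 87.9%. Over these clones it ranged from 68.8% to 200% for Col1a1, 55.6% to 243% for Col3a1 and 67.4% to 1284% for Lox. The median was 139.5% for Col1a2 but 43.6% for Tnc, 37.8% for Col8a1, 30.6% for Col5a1, 27.7% for Col6a2 and 13.7% for Col6a1. Among basement membrane genes the median was 39.7% for Col15a1, 8.62% for Lama3, 5.64% for Col4a1 and 4.64% for Lamb3. It was 3.80% for Col18a1, 3.41% for Lamc1 and 2.57% for Lama5. For Fn1 it was 3.64%. In the highest clone of each gene the percentage reached 263% for Lama3, 93.7% for Lamb3 and 89.2% for Col15a1. It reached 28.8% for Lamc1, 24.8% for Lama5, 23.8% for Col4a1 and 22.7% for Col18a1. The scaling was chosen after seeing the data and has no test. It takes the whole library of yfp_6555c3, tumour cells included, as the profile. Which cells made the transcripts was not tested.

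Col4a1 and Col4a2, whose products form one trimer, held a ratio of 1.64 to 3.05 over the 16 clones, with a median of 2.06. They lie head to head on chromosome 8 (GENCODE M21 on GRCm38), Col4a1 from 11198423 to 11312826 on the - strand and Col4a2 from 11312805 to 11449287 on the + strand. Their promoter windows, shown because they overlap, are chr8:11312777-11313076 on the - strand and chr8:11312555-11312854 on the + strand, and capitals mark the 78 bases that both hold, as reverse complements of each other.
Col4a1: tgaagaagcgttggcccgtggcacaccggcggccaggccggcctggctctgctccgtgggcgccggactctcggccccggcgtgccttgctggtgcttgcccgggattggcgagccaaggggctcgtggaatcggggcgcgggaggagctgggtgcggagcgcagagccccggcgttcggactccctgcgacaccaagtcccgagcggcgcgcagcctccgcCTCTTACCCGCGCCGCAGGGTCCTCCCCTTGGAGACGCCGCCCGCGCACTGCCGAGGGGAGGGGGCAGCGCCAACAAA
Col4a2: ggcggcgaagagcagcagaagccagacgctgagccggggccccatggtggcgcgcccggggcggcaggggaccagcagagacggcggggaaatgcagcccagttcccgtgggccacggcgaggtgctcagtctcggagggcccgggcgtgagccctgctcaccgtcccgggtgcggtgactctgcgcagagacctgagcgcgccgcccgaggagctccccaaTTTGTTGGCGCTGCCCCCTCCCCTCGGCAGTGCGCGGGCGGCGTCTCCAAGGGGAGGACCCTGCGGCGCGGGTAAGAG
The G and C content was 74.0% and 73.7%. The Col4a2 window held CCAAT at -32, and the Col4a1 window held it on the other strand at -145. GGGCGG lay at -192 and 8 in the Col4a2 window and on the other strand at -48, and on the other strand at 10 in the Col4a1 window. The strand setting of the counting is not given in the sources used here, so reads from the bases that both genes span cannot be told apart.

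Col7a1, the collagen of anchoring fibrils, and Col17a1, a collagen of hemidesmosomes, fasten epithelial cells to the basement membrane. Col7a1 was at 20.1, 42.7 and 165 CPM in high, 23.7 and 169.9 CPM in intermediate, and 7.31, 19.2 and 168 CPM in low clones. Besides yfp_6555c3 and yfp_6419c4, the sisters yfp_7160c2 and yfp_7160c5 were high, at 92.6 and 169.9 CPM, with 7.96 and 8.18 CPM of stromal transcripts. Col17a1 was at 0.145, 0.329 and 0.479 CPM in high, 0.119 and 0.175 CPM in intermediate, and 0.152, 0.417 and 0.796 CPM in low clones, under 1 CPM everywhere.

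Between the T cell classes no member passed. In heart-free clones edgeR's quasi-likelihood test, high minus low, called 0 of the 37 members and 0 of 15614 genes (0%). At an unadjusted p under 0.05 there were 5 of the 37 members, a share close to the 13.4% of all genes. They were Lama3 at 1.84 ± 0.48 (log2 difference and SE, p = 0.00166, adjusted p = 0.201), Lamb3 at 0.95 ± 0.37 (adjusted p = 0.326), Lox at 2.07 ± 0.85 (adjusted p = 0.340), Postn at 1.78 ± 0.82 (adjusted p = 0.364) and Hspg2 at -0.78 ± 0.30 (adjusted p = 0.324). With the stromal sum as a covariate, these 5 were at 1.83 ± 0.48, 0.95 ± 0.37, 0.60 ± 0.44, 0.55 ± 0.46 and -0.67 ± 0.27. In that fit edgeR called 0 members, and the smallest adjusted p was that of Col6a3 (-0.83 ± 0.18, adjusted p = 0.162). In limma, Lox was at 0.54 ± 0.71 and Postn at 0.34 ± 0.75. DESeq2 called 1 member, Lama3 (1.83 ± 0.47, adjusted p = 0.0148), against 1.94% of the 15373 genes to which it gave an adjusted p; it gave none to 14 of the members, among them Col1a1, Col3a1, Lox and Postn. Over all libraries, 6 high and 9 low clones, edgeR again called 0 members and 0 of 18529 genes (0%). There 5 of the 37 members had an unadjusted p under 0.05, a share close to the 11.7% of genes. Lama3 was at 1.29 ± 0.40, Lamb3 at 0.66 ± 0.25 and Lox at 0.47 ± 0.55. In heart-bearing libraries alone Lama3 was at 0.56 ± 0.38 and Lox at 0.09 ± 0.47. The fits over all libraries and over heart-bearing libraries held the 7 nearly alike libraries, from both classes, within 7 separate clones. Those clones may not be independent of each other there, and the effect on these differences was not tested.

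Lama3 and Lamb3 encode an alpha and a beta chain of laminin in epithelial basement membranes. Lama3 was at 16.8, 92.0 and 211 CPM in high, 8.19 and 346 CPM in intermediate, and 11.4, 23.4 and 48.6 CPM in low clones, and 4 of the 6 high clones lay above every low clone. Within the high clone yfp_2838c3, Lama3 ranged from 6.20 to 31.8 CPM over 3 heart-free libraries. Lamb3 was at 112, 235 and 361 CPM in high, 77.1 and 434 CPM in intermediate, and 34.5, 101 and 243 CPM in low clones. The medians of both were higher in high clones, the ranges overlapped, and neither passed edgeR's test, while DESeq2 called Lama3. Neither passed edgeR's slope test, with slopes of -0.15 ± 0.20 for Lama3 and -0.13 ± 0.12 for Lamb3. Between sister clones of opposite class, Lama3 was at 117 CPM in the high clone yfp_6556c4 and 26.7 CPM in the low clone yfp_6556c3, but at 38.9 CPM in the high clone yfp_6499c4 and 48.6 CPM in the low clone yfp_6499c3.

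**Figure D4:**
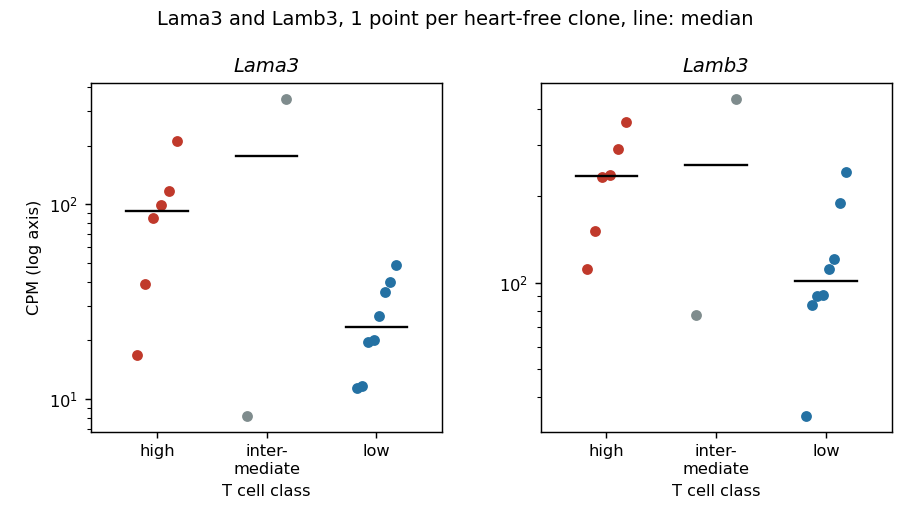
Levels of Lama3 and Lamb3 in CPM on log axes, with 1 point per heart-free clone for T cell high (6), intermediate (2) and T cell low (8) clones and a line at the median. Median Lama3 is 92.0 CPM in high and 23.4 CPM in low clones, and the 2 intermediate clones lie at opposite ends, at 346 and 8.19 CPM.

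For many interstitial genes the direction between classes depended on 1 clone. With yfp_6555c3 among the high clones, 21 of the 37 members had a higher and 16 a lower fitted level in high clones, with a median log2 difference of 0.10 against -0.00 over all genes. Without it, 17 changed sign, so that 4 were higher and 33 lower, with a median of -0.66 against -0.01 over all genes. Col1a1 was at 1.16 ± 1.0 with yfp_6555c3 and -1.64 ± 0.68 without it, Col3a1 at 0.42 ± 1.15 and -2.51 ± 0.96, Dcn at 1.20 ± 1.12 and -2.07 ± 0.83, and Lox at 2.07 ± 0.85 and -0.46 ± 0.39. Without that clone 15 members were lower in high clones at an unadjusted p under 0.05, against 4.36% of all genes, and edgeR called none (0 of 15767 genes). The members nearest to passing were then Col6a3 at -2.62 ± 0.73, Col15a1 at -1.85 ± 0.51 and Lama3 at 1.87 ± 0.51 (adjusted p = 0.377 for each). Col5a1, Col6a1, Col6a2 and Col6a3 had negative differences with yfp_6555c3 (-0.41, -0.71, -0.40 and -0.49) and without it (-1.64, -1.26, -1.48 and -2.62). Without the low clone yfp_6419c4 instead, 4 members changed sign, from lower to higher in high clones: Col5a1 was then at 0.34, Col6a2 at 0.19 and Col6a3 at 0.37, and the other was Thbs1. Of the 8 low clones, 3 were the sisters yfp_6419c1, yfp_6419c4 and yfp_6419c5, with stromal sums of 15.9, 92.5 and 40.5 CPM. Lama3, Lamb3, Hspg2, Col4a1 and Nid1 moved by less than their SE when yfp_6555c3 was left out, with Hspg2 at -0.91 ± 0.32, Col4a1 at -0.58 ± 0.28 and Nid1 at -0.70 ± 0.40.

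**Figure D5:**
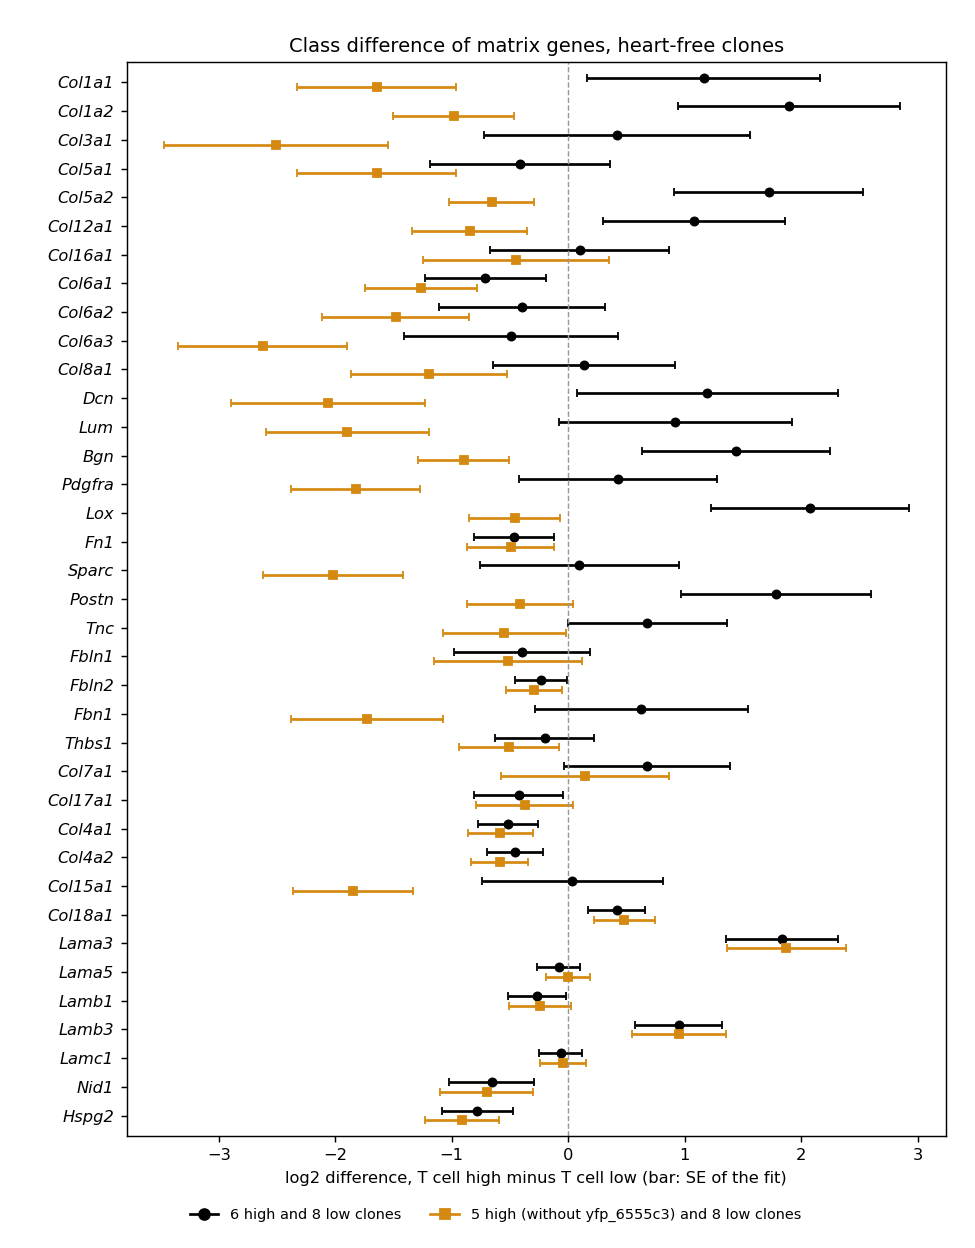
Log2 difference of each member, T cell high minus T cell low, in heart-free clones, with bars for the SE of the fit, for 6 high and 8 low clones and again without yfp_6555c3. Most interstitial genes change side of 0 when that clone is left out, while Lama3 (1.84 and 1.87) and Hspg2 (-0.78 and -0.91) keep theirs.

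The yfp_6499 and the yfp_6556 clones each came in both classes, with 1 heart-free library per clone and so no test. In yfp_6556c4, high, against yfp_6556c3, low, Col1a1 was at 70.3 and 498 CPM, Dcn at 1.15 and 10.5 CPM, Fbn1 at 5.23 and 40.9 CPM, and Col6a2 at 65.5 and 96.8 CPM. Col4a1 differed by a log2 of -0.05, from 586 CPM in the low clone, Lama5 was at 1143.5 and 1134 CPM, and Fn1 at 5407 and 3918 CPM. In yfp_6499c4, high, against yfp_6499c3, low, Col1a1 was at 165 and 264 CPM, Dcn at 2.17 and 2.75 CPM, Fbn1 at 8.71 and 16.3 CPM, and Col6a2 at 27.3 and 112 CPM. Col4a1 was at 244 and 534 CPM (a log2 of -1.13), Lama5 at 576 and 729 CPM, and Fn1 at 2665 and 1532 CPM. In both pairs 25 of the 37 members (67.6%) were lower in the high clone, as were 36.7% of 11046 genes.

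Other matrix genes from 3 lists were tested in the same fits. Of 12 further basement membrane genes, Lama1 (slope 0.74 ± 0.16) and Lama4 (0.72 ± 0.10), laminin alpha chains, passed the slope test of 11 tested, with a median slope of 0.16. Of 18 collagen processing genes, Loxl1 (0.77 ± 0.07), a relative of Lox, and Adamts2 (0.81 ± 0.13), which trims procollagen, passed, and the median slope was 0.08; the prolyl hydroxylase genes P4ha1 and P4ha2 were at -0.02 ± 0.07 and -0.00 ± 0.08. Of 23 other collagen and interstitial matrix genes 8 passed, namely Col5a3, Col13a1, Eln, Emilin1, Mfap2, Mfap5, Thbs2 and Sparcl1, with a median slope of 0.50. Eln, which encodes elastin, had the steepest slope, 2.05 ± 0.34, and was at 0.577, 2.62 and 26.2 CPM in high, 1.92 and 3.49 CPM in intermediate, and 0.483, 3.45 and 534 CPM in low clones, the highest being yfp_6419c4. Without yfp_6555c3, 2 of the 12 genes that had passed still did, Eln (2.65 ± 0.23) and Loxl1 (0.72 ± 0.12). The slopes of Lama1, Mfap2 and Mfap5 were then 0.07 ± 0.29, 0.09 ± 0.20 and 0.02 ± 0.27, and that of Col13a1 was 0.33 ± 0.47. Eln and Loxl1 were highest among low clones in yfp_6419c4, at 534 and 43.1 CPM, against low medians of 3.45 and 6.75 CPM. Their slopes without both yfp_6555c3 and yfp_6419c4 are not given here. Lama1, at 6.39 CPM in yfp_6555c3 and at most 0.58 CPM in any other classed clone, and Col13a1, at 4.37 and at most 0.607 CPM, were near 0 outside that clone, so their slopes with it describe that clone. Between the classes none of the 3 lists held a gene that passed. Small p-values were those of Col4a4 (edgeR adjusted p = 0.250), of P3h2 and Loxl4 (adjusted p = 0.259 and 0.366), and of Col14a1 and Col11a1 (adjusted p = 0.242 for both). Their log2 differences were 3.19 ± 1.0, -1.81 ± 0.60, -0.65 ± 0.30, 3.23 ± 0.96 and -4.30 ± 1.29. Col4a4, P3h2 and Col11a1 had medians of 0.634, 0.923 and 0.895 CPM in high and 0.109, 3.86 and 11.2 CPM in low clones. Col4a4 was highest in yfp_6620c1, at 7.22 CPM, and Col11a1 in yfp_6419c4, at 82.0 CPM.

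In the 15 clones with both kinds of library, 20 of the 37 members were higher in the heart-bearing one in at least 14 clones, among them all 5 fibrillar collagens, all 3 proteoglycans and 3 of the 11 basement membrane genes. Dcn was higher in 15 of 15, by a median log2 of 5.30, and Col1a1, Col3a1, Postn and Lox in 14 of 15, by 1.96, 2.98, 2.89 and 3.35, the exception for each being yfp_6555c3. Of the basement membrane genes, Col4a2 was higher in 15 of 15 and Nid1 and Col15a1 in 14 of 15, by medians of 0.36, 0.76 and 1.69, and the glycoprotein gene Thbs1 in 15 of 15, by 1.04. Lama5 was higher in 11 of 15, by 0.18. Lamb1 was higher in 3 of 15, Lamc1 in 5, Fn1 in 7 and Col18a1 in 1, by medians of -0.59, -0.08, -0.10 and -0.83, against -0.04 over 11046 genes. These are descriptions with no test. The share of all genes that were higher in at least 14 clones is not given here. The 7 heart-bearing libraries that were nearly alike came from 7 clones, so the 15 comparisons may not be separate observations. Fibroblast markers outside the set summed to 232 to 692 CPM in heart-bearing libraries of high clones, 316 and 597 CPM in those of intermediate clones and 66.5 to 525 CPM in those of low clones. Their part in these differences was not tested.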

How the data were processed

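Messenger RNA was measured by RNA sequencing in sorted tumour cells. The authors deposited raw counts per gene for 39 libraries. STAR, featureCounts and the build mm10 are named per the submitters' processing notes. Their versions, the annotation and the strand setting are not given in the sources. Totals were 7638130 to 103794674 counts per library. Where a symbol stood in more than 1 row (162 symbols), only the row with most counts entered; 37607 gene identifiers were found in GENCODE M21, which gave exon lengths and coordinates.

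Counts were summed per clone over heart-free libraries (Myh6, Myh7, Myl2 and Mb under 10 CPM). Levels are CPM of the library total. Tests used edgeR 4.0.16 in R 4.3.3 (filterByExpr, TMM factors, quasi-likelihood test, Benjamini-Hochberg over all genes tested, threshold 0.05), two-sided, with DESeq2 1.42.0 and limma 3.58.1 as alternatives. The slope used log2 of the summed CPM of Dcn, Lum and Pdgfra plus 0.5, which therefore got no slope test. P3h2 stands in the table under an older symbol and was matched through the reference gene tables. Steps were tested on simulated data. The clones of 1 line were taken as separate replicates, which they may not be.

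All 37 members were accounted for; values by class were given for a fixed list of members, for those that passed and for those with an unadjusted p under 0.05. Other matrix genes were named where they passed, else the 2 of each list with the smallest p; 1 gene that this rule names is not reported here, and P4ha1 and P4ha2 were added after their values were seen. The members, lists and divisions of libraries were chosen with earlier results of these data known. Alternatives changed the scaling, filter, test, covariate, libraries and replicates, and left out each clone in turn.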

Additional observations from a re-analysis of the deposited data

Results flagged for a closer look

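Among the heart-free clones of a class, 1 clone stood far from the others in 34 of the 74 groups examined (37 members in the 6 T cell high and the 8 T cell low clones). For normally distributed values chance flags about 1 in 20, but the rule was applied to CPM with no log. Each flagged value was the highest of its class, so that rate cannot be set against the count. The share over all genes is not given here. The members are not independent of each other, and 21 of the flagged values were of yfp_6555c3 and 10 of yfp_6419c4.

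In the T cell high clones yfp_6555c3 stood above the rest in fibrillar collagens, with Col1a1 at 7098 CPM, Col1a2 at 5274 CPM, Col3a1 at 4994 CPM, Col5a1 at 652 CPM and Col5a2 at 516 CPM. It did so in Col6a1 at 640.0 CPM, Col6a2 at 543 CPM, Col6a3 at 337 CPM, Col8a1 at 149 CPM, Col12a1 at 639 CPM and Col15a1 at 135 CPM. Its glycoproteins Sparc at 2060.5 CPM, Postn at 673 CPM, Tnc at 956 CPM, Fbn1 at 364 CPM and Thbs1 at 577 CPM lay apart as well, as did Dcn at 142 CPM, Lum at 53.4 CPM, Bgn at 595 CPM, Lox at 226 CPM and Pdgfra at 61.8 CPM. The 13 fibroblast markers summed to 708 CPM in that library and the 7 endothelial markers to 217 CPM. Their part in these levels was not tested.

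In the T cell low clones yfp_6419c4 stood above the rest in Col3a1 at 3228 CPM, Col5a1 at 863 CPM, Col6a1 at 1115 CPM, Col6a2 at 659 CPM, Col6a3 at 406 CPM, Col7a1 at 168 CPM, Col8a1 at 142 CPM, Dcn at 49.1 CPM, Fbn1 at 169 CPM and Pdgfra at 31.6 CPM. The clone yfp_6556c4 stood above the other high clones in Lamb1 at 598 CPM, and yfp_6556c3 above the other low clones in Fbln1 at 129 CPM and Lox at 26.8 CPM.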

How the results depend on the processing

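Between the classes the 37 members gave 0 calls under each alternative but DESeq2, which gave 1 (Lama3). Over all genes DESeq2 gave 298 calls, and leaving out 1 clone 0 to 37, with 37 without yfp_2838c3 and 1 without yfp_6694c2. With libraries as replicates and the tumour number as a replicate block there were 13 calls, none of them a member; the numbers are only names, so the libraries are not taken as paired. For the slope the 15 members called became 4 to 16 when 1 clone was left out, 2 without the 2 clones highest in stromal transcripts and 0 without yfp_6555c3 and the yfp_6419 clones. The 236 genes called became 107 with other fibroblast markers, 105 with limma, 355 with no class term, 27 to 285 when 1 clone was left out, 4 without the 2 highest clones and 0 without those 4. The lowest of these counts were those without yfp_6555c3, and 150 and 152 genes were called without yfp_6556c4 and yfp_6499c4.

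No class difference of a member that changed sign had passed the test, and the cause of each change was not tested. On the log2 scale limma gave -0.25 for Col1a1, -0.48 for Col3a1, -0.044 for Col12a1, -0.91 for Col15a1, -0.021 for Col16a1, -1.11 for Sparc, -0.20 for Dcn, -0.52 for Lum, -0.021 for Bgn, -0.067 for Tnc, -0.53 for Fbn1 and -0.69 for Pdgfra. Heart-bearing libraries gave 0.11 for Col4a2, 0.40 for Col5a1, 0.15 for Col6a1, 0.33 for Col6a2, 0.32 for Col6a3, -0.075 for Col18a1, 0.16 for Lama5, 0.018 for Nid1 and 0.38 for Thbs1. The replicate block gave 0.18 for Col5a1, 0.068 for Col6a2, -0.0778 for Col15a1, 0.12 for Lama5, 0.076 for Lamc1 and 0.044 for Thbs1. The stromal sum as a covariate gave -0.68 for Col15a1, -0.81 for Sparc, -0.080 for Lum, -0.19 for Fbn1 and -0.30 for Pdgfra. All libraries gave -0.016 for Col16a1, 0.039 for Lama5 and 0.063 for Thbs1, DESeq2 0.40 for Col6a3, and no filter -0.013 for Col15a1. Leaving out 1 clone gave -1.64 to 1.76 for Col1a1, -0.98 to 2.20 for Col1a2, -2.51 to 1.47 for Col3a1, -1.64 to 0.34 for Col5a1, -0.66 to 1.95 for Col5a2, -1.48 to 0.19 for Col6a2, -2.62 to 0.37 for Col6a3, -1.20 to 1.02 for Col8a1, -0.85 to 1.34 for Col12a1, -1.85 to 0.38 for Col15a1, -0.45 to 0.49 for Col16a1, -0.20 to 0.016 for Lama5, -0.26 to 0.041 for Lamc1, -2.02 to 0.40 for Sparc, -2.07 to 2.13 for Dcn, -1.90 to 1.35 for Lum, -0.90 to 1.65 for Bgn, -0.42 to 2.01 for Postn, -0.55 to 1.06 for Tnc, -1.72 to 1.3 for Fbn1, -0.51 to 0.086 for Thbs1, -0.46 to 2.47 for Lox and -1.83 to 1.03 for Pdgfra.

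Among the slopes that changed sign, Col8a1 and Col12a1 had passed. Other fibroblast markers gave -0.039 for Col4a1, -0.0859 for Col17a1, 0.080 for Lama3, -0.034 for Lamc1, -0.14 for Fbln1 and -0.021 for Nid1. Without the 2 highest clones they were -0.072 for Col4a1, 0.0087 for Lama5, -0.064 for Fn1, -0.47 for Tnc, -0.016 for Fbln2 and -0.039 for Nid1. Without yfp_6555c3 and the yfp_6419 clones they were -0.12 for Col4a1, -0.020 for Col4a2, -0.41 for Col7a1, -0.079 for Col8a1, -0.051 for Col12a1, 0.0053 for Lama5, -0.47 for Fn1, -0.77 for Tnc, -0.12 for Fbln2, -0.44 for Nid1 and -0.032 for Thbs1. No filter gave -0.0035 for Col17a1. Leaving out 1 clone gave -0.033 to 0.13 for Col17a1, -0.029 to 0.22 for Col18a1, -0.010 to 0.076 for Lamc1 and -0.041 to 0.54 for Tnc. Genes under 1 CPM, such as Col17a1 and Lum in some clones, have few counts behind each level.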
